A study of Bos taurus with 24 samples.

Results

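The interleukin 6 (IL6) family was examined in cultured bovine dermal fibroblasts, as 4 ligands (IL6, LIF, IL11 and CLCF1) and 5 receptors (IL6R, IL11RA, IL6ST, LIFR and OSMR). The 9 genes were chosen by symbol from 59846 rows of the expression tables, of which 27550 carried a gene symbol. The rule itself did not use their values, but the members were chosen with earlier results of these data known. All 9 symbols were found, and where a symbol stood on several rows the row with the most reads was taken. IL6 was the case in point: the row used lay on chromosome 4, from 31578311 to 31582679, and a second row on chromosome 8 (23287273 to 23287909) held between 0 and 9 counts in any sample and was set aside.

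Fibroblasts grown from skin biopsies of 4 Holstein (dairy) and 4 Angus (beef) heifers were exposed to 100 ng/ml of lipopolysaccharide (LPS), the main glycolipid on the surface of Gram-negative bacteria. RNA was taken at hour 0, before LPS, and at hours 2 and 8, which gave 24 libraries in 6 groups of 4. All groups shared the same medium with 5% fetal bovine serum, and each animal was represented by 1 culture whose duplicate wells were pooled before extraction, so the 3 hours of an animal came from the same culture and the spread within a group was the spread between animals. No library of hour 2 or 8 without LPS was analysed here, so time in culture and LPS cannot be told apart.

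Cytokines of this family signal through receptor complexes that share the IL6ST chain, also known as gp130. IL6 and IL11 first bind their own receptors, IL6R and IL11RA, and then join IL6ST. LIF and CLCF1 use LIFR together with IL6ST, CLCF1 with the help of a further receptor, while OSMR pairs with IL6ST to receive oncostatin M. The complexes activate Janus kinases and the transcription factor STAT3. Fibroblasts are a known source of IL6 and LIF in inflamed tissue.

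Libraries held between 51014538 and 104406293 counts, so 3 counts corresponded to between 0.0287 and 0.0588 counts per 1000000 counts (CPM). Levels below are CPM after TMM scaling (trimmed mean of M-values, which corrects for library composition), and since they are not divided by transcript length they are compared between samples and not between genes. Summed over 8 markers, the dermal fibroblast level was between 37710 and 124400 CPM in every library. The summed level of 6 leukocyte and macrophage markers was between 2.15 and 5.69 CPM, of which CD68 was between 1.35 and 4.34 CPM and each of the others under 1 CPM, and that of 4 endothelial markers at most 5.21 CPM. Keratinocyte markers (5 genes) summed to between 18 and 23 CPM in the Holstein animal 1 cultures and to at most 0.941 CPM in all others. The collagen gene COL1A1 was counted another way in 4 libraries, namely those of Holstein animals 2 and 4 and Angus animal 4 at hour 0 and of Angus animal 3 at hour 2, where each count stood for 66.2 to 67.1 bases of coverage, while it stood for 111.8 to 119 bases elsewhere. Values without these 4 are given for some, not all, of the results that then crossed the FDR limit or whose fold moved by over 1.5 times. Each of the 4 was dropped while the other hours of its animal were kept.

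At hour 2 all 4 ligands and 1 of 5 receptors, LIFR, were called higher than at hour 0 with the breeds combined, where a call required an FDR under 0.05, a change of at least 2-fold and an average level above 1 CPM (edgeR likelihood-ratio test). Of 20157 rows tested, 2.08% were called higher. The median log2 fold change was 3.61 over the ligands and 0.08 over the receptors, beside -0.004 over all rows. These 5 members did not overlap between the hours, as in 3.98% of all rows, and together with IL6R they were higher in every animal, as in 17.8%. By hour 8 only IL6 among the 8 members tested was still called higher, against 1.07% of all rows, although 6 members (IL6, LIF, IL11, CLCF1, IL6ST and LIFR) were above hour 0 in every animal, as in 13.8%. LIF, IL11 and CLCF1 were called lower at hour 8 than at hour 2, against 1.61% of all rows. The leukocyte and macrophage sum moved too, from between 2.15 and 3.34 CPM at hour 0 to between 4.57 and 5.69 CPM at hour 2 in Holstein, and from between 3.36 and 5.14 to between 4.93 and 5.14 CPM in Angus, and its part in the ligand changes was not tested. These are levels in whole cultures, in which fewer cells of a type and less RNA per cell cannot be told apart.

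**Figure D1:**
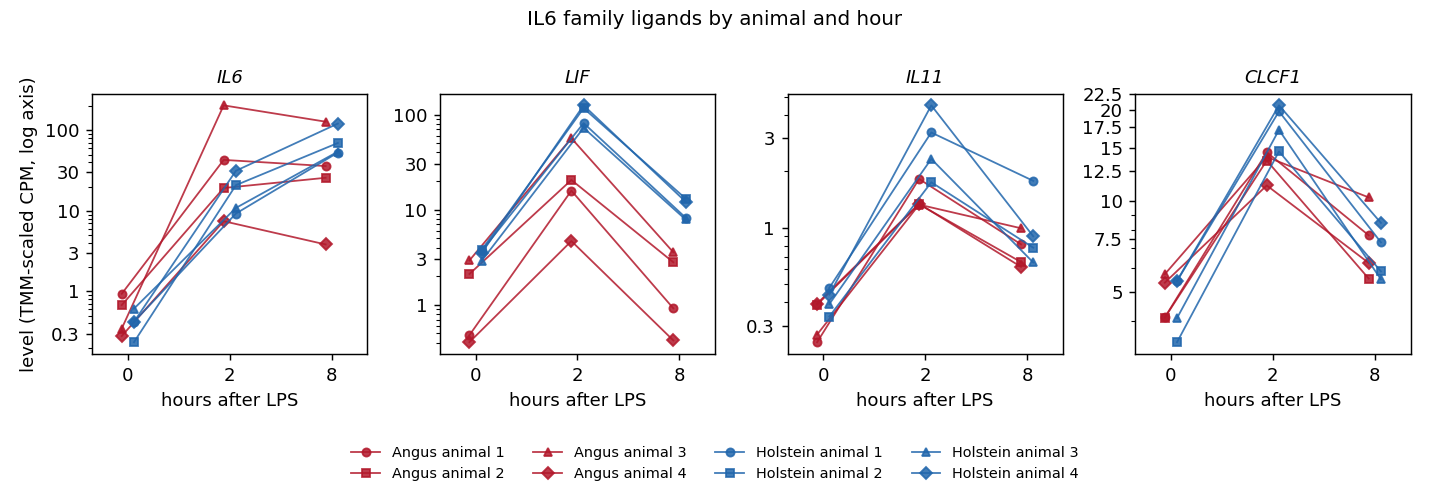
Levels of the 4 ligands in each animal at hours 0, 2 and 8 after LPS, as TMM-scaled CPM on a log axis, with 1 line per animal (red Angus, blue Holstein; points are moved sideways to separate the breeds). IL6 was higher at hour 8 than at hour 2 in all 4 Holstein animals and in 1 of 4 Angus animals, whereas LIF, IL11 and CLCF1 were lower at hour 8 than at hour 2 in 8 of 8 animals.

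IL6, the founding member of the family and a driver of the acute phase response, was under 1 CPM in every culture before LPS and above it in every culture afterwards. At hour 0 its level was 0.934, 0.676, 0.346 and 0.279 CPM in Angus animals 1 to 4, and 0.419, 0.234, 0.611 and 0.419 CPM in Holstein animals 1 to 4. At hour 2 it reached 42.9, 19.2, 204 and 7.44 CPM in the Angus cultures and 9.26, 20.8, 10.9 and 31.4 CPM in the Holstein cultures. At hour 8 the Angus cultures were at 36.0, 25.7, 128 and 3.83 CPM and the Holstein cultures at 52.9, 69.6, 54.3 and 121 CPM. Every culture was above its own hour 0 level at both later hours, by between 17.8-fold and 590-fold at hour 2 and between 13.7-fold and 370-fold at hour 8, and the hour 0 levels did not overlap with those after LPS (at hour 8 this held for 1.66% of all rows). With the breeds combined IL6 rose by 6.46 on the log2 scale at hour 2 (SE 0.58, FDR = 1.42e-16) and by 6.96 at hour 8 (SE 0.48, FDR = 1.28e-26). The 4 libraries counted another way, set apart by COL1A1 alone, include the Angus animal 3 library of hour 2. Without these 4 the rise at hour 2 was 5.07 (FDR = 5.63e-19). The combined change from hour 2 to hour 8 was then 1.60 (FDR = 0.0195) in place of 0.51 (FDR = 0.662). That fit dropped Angus animal 3 at hour 2 but kept it at hour 8, so its pair was broken. With each animal left out whole, in turn, this change was between 0.24 and 1.36 (FDR between 0.06 and 0.894). For IL6 itself, each count in the hour 2 library of Angus animal 3 stood for 74.2 bases of coverage. In Angus animals 1, 2 and 4 at hour 2 it stood for 74.8, 74.4 and 74.5 bases.

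The Angus cultures differed more among themselves in IL6 than the Holstein cultures did. Angus animal 3 was the highest of the 8 at hours 2 and 8, and Angus animal 4 was the lowest at both hours, although these animals were close to each other at hour 0. The mean at hour 2 was 68.4 ± 91.6 CPM (SD, n = 4) in Angus and 18.1 ± 10.2 CPM (SD, n = 4) in Holstein. The difference of the breeds, Holstein against Angus, was -1.92 at hour 2 (SE 0.83, FDR = 0.0997) and 0.63 at hour 8 (SE 0.76, FDR = 0.628), and neither passed the limit. Both values turned on single animals: without Angus animal 4 the IL6 difference at hour 2 was -2.30 (FDR = 0.0236), and without Angus animal 3 it was -0.35 at hour 2 and 1.76 at hour 8 (FDR = 0.0317). At hour 0 the IL6 level was under the filter on low rows, and without that filter the difference was -0.40 (SE 0.46, FDR = 0.702). In Holstein animals 2 and 4 at hour 0 each IL6 count stood for 92.8 and 96.6 bases of coverage, while it stood for 67.1 to 79.3 bases in the remaining libraries of that hour. Read from coverage, the IL6 level at hour 0 was 0.436 ± 0.139 (SD, n = 4) in Holstein and 0.584 ± 0.341 (SD, n = 4) in Angus, as covered bases per 1000000 covered bases.

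Between hours 2 and 8 IL6 rose further in Holstein, and in Angus its change did not pass the limit. The Holstein cultures ended at between 3.34 and 5.71 times their own hour 2 level, and the Angus cultures at between 0.514 and 1.34 times theirs, with 1 of 4 higher. In Holstein the increase was 2.04 on the log2 scale (SE 0.41, FDR = 3.41e-05), in a comparison where 1.73% of all rows were called higher, and the hours did not overlap, as in 14.2%. In Angus the change was -0.50 (SE 1.04, FDR = 0.875). It was 1.07 (SE 0.94, FDR = 0.593) without the library of Angus animal 3 at hour 2, which also holds the highest IL6 value of the data. The hour 8 library of that animal was kept there, so its pair was broken. With each Angus animal left out whole, in turn, the change was between -0.61 and -0.09 (lowest FDR 0.893). The difference between the breeds in this change was 2.54 (SE 1.22, FDR = 0.795) when the 8 cultures were treated as unrelated across hours, a comparison that called 0.286% of all rows and no member. It was 2.50 (SE 0.27, FDR = 2.34e-16) with the animal as a block, where 0.552% of all rows were called in this direction, and 2.47 (FDR = 0.00143) in the quasi-likelihood F test with the same block. The changes per animal did not overlap between the breeds, which held for 6.14% of all rows in the direction of a higher change in Holstein. These comparisons of hour 8 with hour 2 within breeds, and that F test with the block, were added after the values had been seen. Without the 4 libraries that stood apart, and without the block, the difference was 0.95 (FDR = 1), again with Angus animal 3 kept at hour 8 only. With each animal left out whole, in turn, and without the block, it was between 2.11 and 2.65 (lowest FDR 0.556). For hour 2 and hour 8 against hour 0, the breeds' IL6 responses did not differ past the limit with or without the block (lowest FDR over all alternatives 0.649 and 0.286). Over the alternatives that left out no whole animal, the IL6 interaction at hour 2 was between -1.56 and -0.04. They include the fit without the 4 libraries that stood apart. The IL6 rise in Angus at hour 2 was between 5.15 and 6.96 over the same alternatives.

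LIF, a regulator of stem cells and of the acute phase response, rose at hour 2, fell by hour 8 and was higher in Holstein at both hours. It lies on chromosome 17, from 71413855 to 71418166. Before LPS it was at 0.479, 2.11, 2.93 and 0.404 CPM in the Angus cultures and at 3.68, 3.78, 2.90 and 3.50 CPM in the Holstein cultures. Thus animals 1 and 4 of Angus were low, and the highest Angus culture overlapped with the lowest Holstein culture. At hour 2 LIF reached 15.9, 20.5, 56.4 and 4.68 CPM in Angus and 81.4, 117, 72.6 and 125 CPM in Holstein, and at hour 8 it was back to 0.918, 2.80, 3.57 and 0.422 CPM in Angus but 8.26, 13.1, 7.89 and 12.2 CPM in Holstein. All 4 Holstein cultures were above all 4 Angus cultures at both hours after LPS, as in 12.9% of all rows at hour 2 and 11.2% at hour 8.

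LIF rose by 4.64 on the log2 scale at hour 2 with the breeds combined (SE 0.56, FDR = 5.05e-11) and fell by 3.32 from hour 2 to hour 8 (SE 0.64, FDR = 2.9e-05), in 8 of 8 animals each. The decline was called in Holstein together with that of IL11 and CLCF1, beside 2.18% of all rows called lower, and in Angus for LIF alone, beside 1.4%. At hour 8 the combined change from hour 0 was 1.31 (SE 0.59, FDR = 0.14), which missed the limit, and with the animal as a block LIF was called at 1.02 (SE 0.20, FDR = 4.92e-06), beside 1.18% of all rows. Within breeds, the hour 8 change was 1.58 in Holstein (SE 0.21, FDR = 1.8e-11) and 0.38 in Angus (SE 0.77, FDR = 0.916). A call against hour 0 was made for 2 of the 3 ligands tested in Holstein, beside 1.91% of all rows higher, and for 1 of 3 in Angus, beside 0.592%.

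The breed difference in LIF was called at hours 2 and 8. Holstein was higher by 2.02 on the log2 scale at hour 2 (SE 0.58, FDR = 0.00825), or 4.05-fold, and by 2.42 at hour 8 (SE 0.56, FDR = 0.00118), or 5.36-fold. At hour 2 LIF and IL11 were the 2 members called, both higher in Holstein, against 2.43% of all rows, and at hour 8 LIF was the only one, against 2.21%. The hour 2 difference in LIF was past the limit in every fit that left out 1 library (highest FDR 0.0493), at 2.85 without that of Angus animal 3 (FDR = 1.82e-07), and missed it in the quasi-likelihood F test (FDR = 0.0523). At hour 0 the LIF difference was 1.23 (SE 0.57, FDR = 0.145), and 1.80 (FDR = 0.00928) without Angus animal 3, in a comparison in which 3.81% of all rows were called and no member was. Marker levels also differed between the breeds. Summed over 3 pericyte and smooth muscle markers, mostly MYH11, the Angus cultures lay between 20.5 and 24.2 CPM at hour 2 and between 17.0 and 20.6 CPM at hour 8, while the Holstein cultures lay between 29.1 and 44.6 CPM and between 26.4 and 47.3 CPM, without overlap. The endothelial sum was also higher in every Holstein culture at both hours, and the fibroblast and keratinocyte sums were at hour 8 only. The leukocyte and melanocyte sums overlapped at both hours. Among single rows, 12.9% at hour 2 and 11.2% at hour 8 lay apart in this direction. The part of these markers in the LIF difference was not tested.

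The size of the LIF response was compared between the breeds by an interaction. It was 1.19 at hour 8 (Holstein minus Angus, log2, FDR = 1) without a block, and 1.13 (SE 0.22, FDR = 0.000175) with the animal as a block, where 0.427% of all rows were called higher, but 1.13 (FDR = 0.0507) in the quasi-likelihood F test with that block. Each Holstein culture was between 2.24 and 3.47 times its hour 0 level at hour 8 and each Angus culture between 1.04 and 1.92 times. These changes did not overlap, as for 4.36% of all rows. At hour 2 the LIF interaction was 0.80 (FDR = 1, and 0.139 with the block), and 2.01 (SE 0.84, FDR = 0.484) without the 4 libraries counted another way. That fit broke pairs, since it dropped Angus animal 3 at hour 2 only and Angus animal 4 at hour 0 only. With each animal left out whole, in turn, the LIF interaction at hour 2 was between 0.50 and 1.06. No member was called in either interaction without the block, beside 0.278% of all rows at hour 2 and 0.0982% at hour 8.

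IL11, a regulator of fibrosis and bone turnover, was under 1 CPM in every culture before LPS and above it in every culture at hour 2. It lies on chromosome 18, from 62555355 to 62564977, and shares 830 bases with TMEM190 on the opposite strand. Its level was between 0.246 and 0.479 CPM in all cultures at hour 0. At hour 2 it was 1.82, 1.33, 1.33 and 1.34 CPM in Angus and 3.22, 1.75, 2.33 and 4.49 CPM in Holstein, and at hour 8 it was between 0.619 and 1.78 CPM. Every culture was higher at hour 2 than any culture at hour 0. IL11 rose by 2.58 at hour 2 (SE 0.28, FDR = 5.24e-17) and fell by 1.28 from hour 2 to hour 8 (SE 0.30, FDR = 0.000231). It was under the filter for hour 8 against hour 0. Without the filter that change was 1.29 (SE 0.25, FDR = 1.93e-05), and 8 of 8 animals were higher.

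The breed difference of IL11 at hour 2 was 1.02 on the log2 scale (SE 0.31, FDR = 0.00991), just over 2-fold, with Holstein animal 2 inside the Angus range. It fell short of 2-fold without the library of Angus animal 3 (0.98) and in 5 of the 8 fits that left out 1 library in all, the lowest of them 0.74 without Holstein animal 4. In Angus alone the hour 2 change of IL11 was 2.14 (SE 0.26, FDR = 2.31e-14), but with an average of 0.883 CPM it was not called. The other 3 ligands were called in Angus at hour 2, beside 1.97% of all rows, and all 4 in Holstein, beside 2.41%.

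CLCF1, a ligand that also acts on B cells, was between 2.10 and 4.27 times its hour 0 level at hour 2 over the 8 animals. The gene lies on chromosome 29, from 45910397 to 45912698. At hour 0 the Angus cultures held 4.12, 4.11, 5.72 and 5.36 CPM and the Holstein cultures 5.43, 3.41, 4.10 and 5.44 CPM. At hour 2 the levels were 14.5, 13.6, 13.96 and 11.2 CPM in Angus and 19.7, 14.6, 17.2 and 20.7 CPM in Holstein, with every Holstein culture above every Angus culture although Angus animal 1 and Holstein animal 2 were nearly level. At hour 8 all 8 cultures lay between 5.50 and 10.3 CPM and the breeds overlapped. CLCF1 rose by 1.73 at hour 2 (SE 0.15, FDR = 6.33e-27) and fell by 1.14 from hour 2 to hour 8 (SE 0.16, FDR = 1.51e-10). At hour 8 it was still 0.59 above hour 0 (SE 0.16, FDR = 0.00365), which is under 2-fold. At hour 2 its breed difference was 0.43 (SE 0.16, FDR = 0.034), also under 2-fold, where 10.4% of all rows passed the FDR limit in this direction at any fold. That FDR was between 0.0103 and 0.134 when single libraries were left out. From hour 2 to hour 8 the Holstein minus Angus difference in the CLCF1 change was -0.57 (SE 0.28, FDR = 0.818), and -0.54 (SE 0.18, FDR = 0.047) with the animal as a block, where the quasi-likelihood F test gave an FDR of 0.0956.

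**Figure D2:**
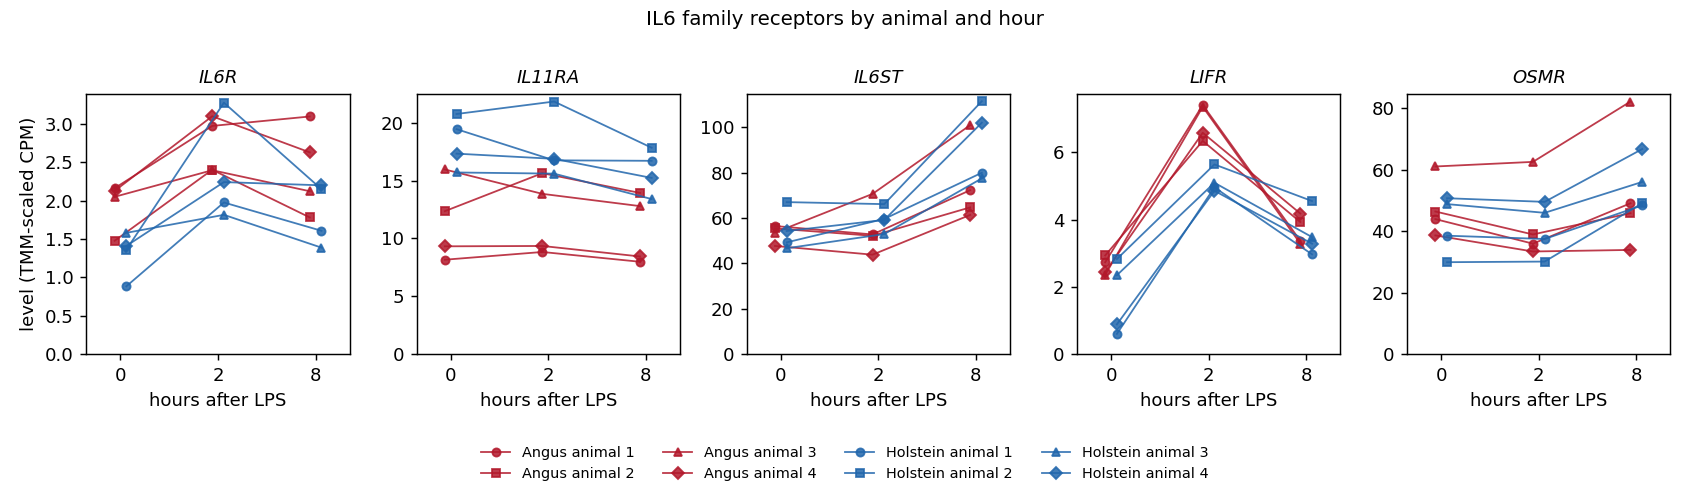
Levels of the 5 receptors in each animal at hours 0, 2 and 8 after LPS, as TMM-scaled CPM on linear axes from 0, with 1 line per animal (red Angus, blue Holstein). LIFR was above every hour 0 value in all cultures at hour 2, and IL6ST was highest at hour 8 in 8 of 8 animals. With the breeds combined, IL11RA and OSMR did not pass the limit against hour 0 unless the animal was a block.

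Among the receptors, LIFR was the only one called after LPS with the breeds combined. LIFR, the signalling partner of IL6ST for LIF and CLCF1, lies on chromosome 20, from 35917479 to 35966671. At hour 0 it was at 2.73, 2.93, 2.354 and 2.44 CPM in Angus and at 0.599, 2.83, 2.34 and 0.881 CPM in Holstein, so that Holstein animals 1 and 4 were low. At hour 2 it was at 7.41, 6.34, 7.35 and 6.58 CPM in Angus and at 4.96, 5.64, 5.09 and 4.86 CPM in Holstein. At hour 8 all cultures were between 2.97 and 4.55 CPM. All cultures at hour 2 were above all cultures at hours 0 and 8, which for hour 8 against hour 2 held for 3.52% of all rows.

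LIFR rose by 1.49 on the log2 scale at hour 2 (SE 0.26, FDR = 7.52e-07), and was called in Holstein (1.61, SE 0.43, FDR = 0.00282) and in Angus (1.40, SE 0.17, FDR = 5.24e-14). From hour 2 to hour 8 its change was -0.73 (SE 0.13, FDR = 8.78e-07), in 8 of 8 animals, as in 17.2% of all rows, but under 2-fold, and 11.6% of all rows passed the FDR limit in this direction. At hour 8 it stood 0.75 above hour 0 (SE 0.26, FDR = 0.0356), and the FDR was 0.0888 without the 4 libraries and 0.0628 in the quasi-likelihood F test. In Holstein alone the hour 8 change was 1.10 (SE 0.45, FDR = 0.087) and was called with the block (1.33, SE 0.31, FDR = 0.000221), beside 2.05% of all rows. At hour 2 LIFR was lower in Holstein by 0.44 on the log2 scale (SE 0.14, FDR = 0.018), with no overlap, as in 11.1% of all rows, but under 2-fold, and 9.71% of all rows passed the FDR limit in this direction. This FDR was between 0.0279 and 0.0964 when single libraries were left out. The low hour 0 values of Holstein animals 1 and 4 came with 98.4 bases of coverage for each count, while the remaining libraries of hour 0 had 66.5 to 71.9. Read from coverage instead, the hour 0 level was 1.63 ± 0.86 (SD, n = 4) in Holstein and 2.44 ± 0.29 (SD, n = 4) in Angus, as covered bases per 1000000 covered bases. The part of this counting in the LIFR values was not tested. LIFR also shares 322 bases with EGFLAM on the opposite strand, and since the library kit does not mark strand their reads there cannot be told apart. EGFLAM held 12361 counts over all libraries, against 7409 for LIFR. It was the row most like LIFR by Spearman's rho (0.957), though not among the 3 most like it by Pearson r. The part of EGFLAM reads in the LIFR values was not tested.

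IL6ST, the signalling chain that the complexes above share, was higher at hour 8 than at hours 0 and 2. It lies on chromosome 20, from 23126026 to 23274582. Its level was between 46.7 and 67.1 CPM over the 8 cultures at hour 0, between 43.9 and 70.7 CPM at hour 2, and between 61.4 and 112 CPM at hour 8. The groups overlapped, but each of the 8 animals was higher at hour 8 than at either earlier hour. The change was 0.08 at hour 2 (SE 0.11, FDR = 0.694, 95% interval -0.13 to 0.29), and 0.63 at hour 8 (SE 0.13, FDR = 5.42e-05). Hour 8 against hour 2 gave 0.56 (SE 0.14, FDR = 0.000687), beside 12.2% of all rows past the FDR limit in this direction. Neither of the later values reached 2-fold. With the breeds combined, 2 of 5 receptors (IL6ST and LIFR) passed the FDR limit at any fold at hour 8, beside 6.55% of all rows in this direction. The breed difference of IL6ST was 0.03, 0.11 and 0.31 at hours 0, 2 and 8, none past the limit (FDR = 0.925, 0.673 and 0.275). An interval without a gene symbol overlaps IL6ST over 54844 bases and held 159335 counts over all libraries, against 124275 for IL6ST.

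IL6R, the receptor that gives IL6 its specificity, was higher at hour 2 than at hour 0 in every animal, by less than 2-fold with the breeds combined. It lies on chromosome 3, from 16179333 to 16231747. In Angus it was between 1.48 and 2.16 CPM at hour 0, between 2.40 and 3.102 CPM at hour 2 and between 1.78 and 3.099 CPM at hour 8, and in Holstein between 0.883 and 1.58, between 1.82 and 3.28 and between 1.39 and 2.20 CPM at the same hours. All 8 animals were higher at hour 2 than at hour 0, and within each breed these hours did not overlap, as in 11.6% of all rows in Holstein and 9.91% in Angus. The combined change was 0.62 at hour 2 (SE 0.19, FDR = 0.00742), under 2-fold, in a comparison where 10.8% of all rows passed the FDR limit in this direction, with an FDR between 0.00813 and 0.0511 when single libraries were left out. Without the 4 libraries the hour 2 change of IL6R kept its size (0.62) and missed the limit (FDR = 0.0572). At hour 8 it was 0.37 (SE 0.20, FDR = 0.239), and 0.38 (SE 0.12, FDR = 0.00714) with the animal as a block. At hour 0 the breed difference of IL6R was -0.58 (SE 0.24, FDR = 0.0949). The covered bases per count of IL6R were between 95.8 and 98.3 in Holstein animals 1, 2 and 4 at hour 0, beside a median of 81.6 over all libraries.

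With the breeds combined, OSMR and IL11RA did not pass the limit against hour 0 without the animal block. With the block both passed at hour 8, at less than 2-fold. OSMR, the oncostatin M receptor, lies on chromosome 20 from 35518582 to 35588181, 329297 bases from LIFR. It was between 29.9 and 61.0 CPM at hour 0, between 30.1 and 62.5 CPM at hour 2 and between 33.9 and 82.2 CPM at hour 8. Its combined change was -0.10 at hour 2 (95% interval -0.42 to 0.22, FDR = 0.762) and 0.26 at hour 8 (95% interval -0.07 to 0.60, FDR = 0.355). In Angus alone the OSMR change at hour 2 was between -0.49 and -0.15 over the alternatives that left out no whole animal. Their FDR was between 0.0367 and 0.837, and they include the fit without the 4 libraries. Hour 8 was above hour 2 in 8 of 8 animals, by 0.37 (SE 0.18, FDR = 0.121), beside 17.6% of all rows that were higher in every animal. Without the 4 libraries it was above by 0.48 (FDR = 0.0266), in a fit that kept Angus animal 3 at hour 8 but not at hour 2. With each animal left out whole, in turn, the OSMR rise was between 0.34 and 0.42 (FDR between 0.067 and 0.24). With the animal as a block OSMR was higher at hour 8 by 0.25 against hour 0 (SE 0.09, FDR = 0.0153) and by 0.37 against hour 2 (SE 0.07, FDR = 8.5e-07). The share of all rows past the FDR limit at any fold was not counted with the block, here or for IL6R and IL11RA.

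IL11RA, the specific receptor of IL11, was higher in Holstein at hours 0 and 2 by less than 2-fold, at an FDR that missed the limit under other settings. It lies on chromosome 8, from 77361675 to 77368156. At hour 0 its level was 8.16, 12.4, 15.97 and 9.32 CPM in Angus and 19.5, 20.8, 15.7 and 17.3 CPM in Holstein. Angus animal 3 lay inside the Holstein range. At hours 2 and 8 Angus cultures were between 7.98 and 15.7 CPM and Holstein cultures between 13.4 and 21.9 CPM. The breed difference was 0.68 at hour 0 (SE 0.22, FDR = 0.0205), 0.57 at hour 2 (SE 0.22, FDR = 0.0482) and 0.55 at hour 8 (SE 0.21, FDR = 0.0529), all under 2-fold, and 6.83% of all rows passed the FDR limit in this direction at hour 0. With single libraries left out the hour 0 FDR was between 4.54e-05 and 0.0994. Without the 4 libraries counted another way, 3 of which are of hour 0, the IL11RA difference at hour 0 was 0.53 (SE 0.31, FDR = 0.545), and the quasi-likelihood F test gave an FDR of 0.0671 at hour 0 and 0.0782 at hour 2, so these differences did not hold in every fit. The IL11RA change with LPS was -0.01 at hour 2 (95% interval -0.43 to 0.42, FDR = 0.992) and -0.17 at hour 8 (95% interval -0.59 to 0.25, FDR = 0.698). With the animal as a block IL11RA was lower at hour 8 than at hour 0 (-0.15, SE 0.06, FDR = 0.0398) and than at hour 2 (-0.15, SE 0.05, FDR = 0.0142).

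**Figure D3:**
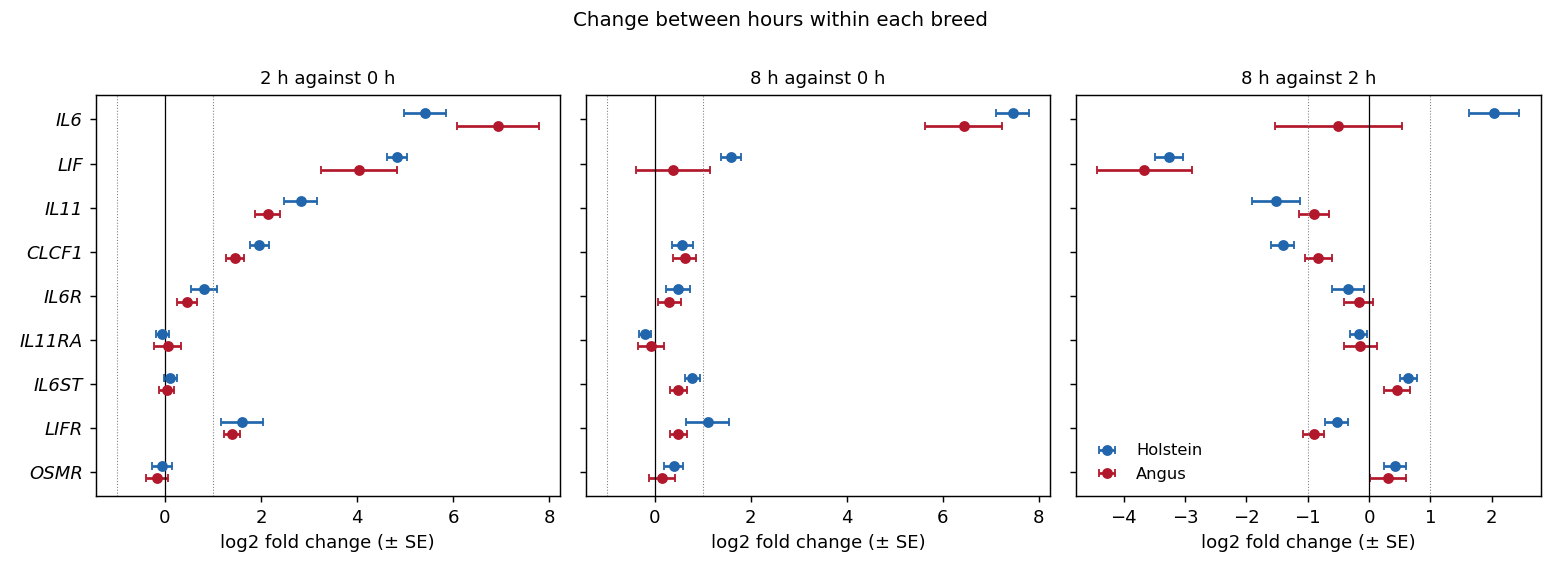
Log2 fold change of the 9 members between hours within Holstein (blue) and Angus (red), as points with their SE, where dotted lines mark 2-fold; IL11 at hour 8 against hour 0 was under the filter on low rows and is not drawn. From hour 2 to hour 8 IL6 stood at 2.04 in Holstein and -0.50 in Angus, while LIF, IL11 and CLCF1 were below 0 in both breeds.

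**Figure D4:**
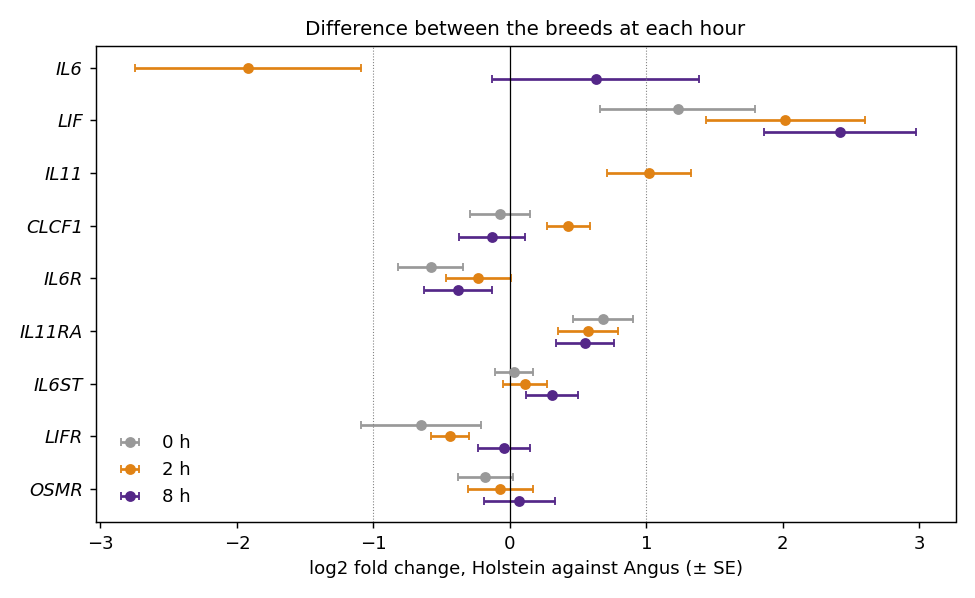
Log2 fold change of Holstein against Angus for the 9 members at hours 0 (grey), 2 (orange) and 8 (purple), as points with their SE, where values above 0 are higher in Holstein, dotted lines mark 2-fold, and IL6 at hour 0 and IL11 at hours 0 and 8 are not drawn because they were under the filter. LIF was past 2-fold at hours 2 and 8 (2.02 and 2.42), and IL6 changed from -1.92 to 0.63 with wide errors.

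The rest of the pathway was followed with 4 lists. Of 10 other ligands and receptors of the family, 8 were in the tables and 1, IL27RA, was tested: its change was 0.84 at hour 2 (SE 0.08, FDR = 4.53e-21) and 0.85 at hour 8 (SE 0.11, FDR = 1.24e-12), under 2-fold. OSM, the ligand of OSMR, was at or below 0.0307 CPM in every library, which is about the level of 3 counts.

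With the breeds combined no JAK-STAT gene was called against hour 0. Of all rows 2.08% were called higher at hour 2 and 1.07% at hour 8. Of 10 JAK-STAT genes 7 were tested against hour 0 at each later hour, with list medians of 0.01 at hour 2 and 0.21 at hour 8. STAT3, the main transcription factor of the pathway, gave 0.18 at hour 2 (SE 0.16, FDR = 0.525) and 0.59 at hour 8 (SE 0.20, FDR = 0.027), the latter under 2-fold, and the kinase JAK1 gave 0.19 (FDR = 0.073) and 0.21 (FDR = 0.0835). SOCS3, the feedback inhibitor of IL6ST signalling, was under the filter against hour 0 with the breeds combined, with means between 0.673 and 1.07 CPM over the 6 groups. CISH, another inhibitor of cytokine signalling, was called in Holstein at hour 2 (1.72, SE 0.25, FDR = 5.48e-10), beside 2.41% of all rows. It was also called between the breeds at that hour, where Holstein was higher by 1.58 (SE 0.33, FDR = 9.78e-05), beside 2.43% of all rows.

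Among 10 STAT3-responsive genes, 7 were tested and 4 were called higher at hour 2, with a list median of 1.04, beside 2.08% of all rows. They were PIM1, a survival kinase (2.27, SE 0.30, FDR = 2.79e-11), JUNB, an AP-1 subunit (1.97, SE 0.28, FDR = 8.94e-10), BCL3, a partner of NF-kB (1.25, SE 0.27, FDR = 8.99e-05), and CEBPD, a transcription factor of the acute phase (1.04, SE 0.26, FDR = 0.000608). CEBPD alone was called at hour 8 (1.15, SE 0.27, FDR = 0.000532), and PIM1 and JUNB were called lower at hour 8 than at hour 2, as LIF, IL11 and CLCF1 were. At hour 2 PIM1, JUNB and BCL3 were called higher in Holstein, by 1.38, 1.34 and 1.19 on the log2 scale (FDR = 3.46e-05, 8.37e-06 and 0.000597), beside 2.43% of all rows. These genes also respond to NF-kB and other signals.

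Of 6 regulators of IL6 transcript and receptor shedding, 2 were called higher at both hours, beside 2.08% of all rows at hour 2 and 1.07% at hour 8. NFKBIZ, a nuclear cofactor needed for IL6 transcription in other cells, rose by 3.55 at hour 2 (SE 0.33, FDR = 8.28e-21) and 1.7 at hour 8 (SE 0.22, FDR = 4.46e-11). ZC3H12A, a ribonuclease that degrades IL6 transcript, rose by 2.67 (SE 0.30, FDR = 1.18e-14) and 1.40 (SE 0.24, FDR = 8.89e-07). At hour 8 NFKBIZ was higher in Holstein by 1.01 (SE 0.20, FDR = 4.44e-05), beside 2.21% of all rows called higher. Its mean at hour 2 was 137.2 ± 43.9 CPM in Holstein and 61.05 ± 45.15 CPM in Angus (SD, n = 4). None of the 6 regulators was called between the breeds at hour 2. The sheddases ADAM10 and ADAM17, which release soluble IL6R, were tested and not called.

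**Figure D5:**
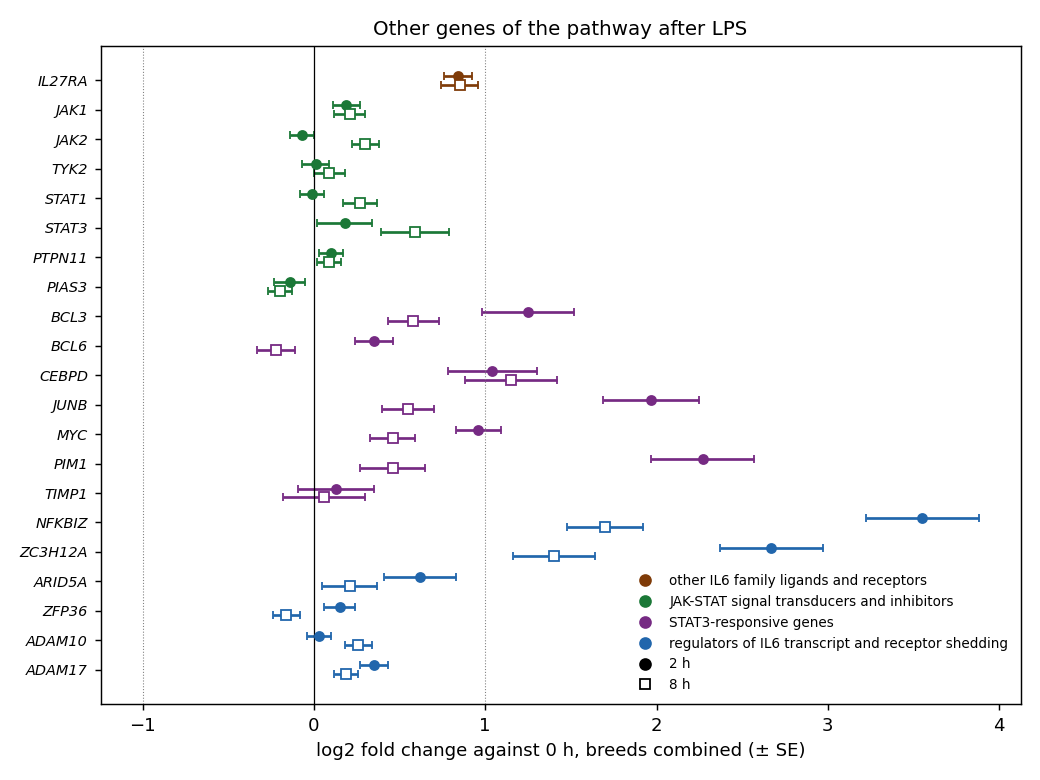
Log2 fold change against hour 0, breeds combined, of the other pathway genes tested at hour 2 (filled circles) and hour 8 (open squares), as points with their SE, coloured by list, where dotted lines mark 2-fold. NFKBIZ, ZC3H12A, PIM1 and JUNB had values of 3.55, 2.67, 2.27 and 1.97 at hour 2 and were lower at hour 8, and the JAK-STAT genes stayed between the dotted lines.

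The genes whose levels followed each ligand most closely over the 24 samples were found from the Pearson r of log2(CPM + 1) over 13258 rows. These samples come from 8 animals at 3 hours, so the values only describe likeness. For IL6 they were SLC39A14, a zinc transporter (r = 0.944), the chemokine IL8 (0.941) and NR4A2, a nuclear receptor (0.932). For LIF they were WNT10B (0.96), RABGEF1 (0.954) and PIM1 (0.953). For IL11 they were JUNB (0.932), SMAD7, an inhibitor of TGF-beta signalling (0.927), and LOC100337034 (0.926), and for CLCF1 the nuclear receptor NR4A1 (0.958), SMAD7 (0.95) and TSKU (0.94). Between the ligands themselves r was 0.918 for CLCF1 with IL11, 0.838 for IL11 with LIF and 0.825 for CLCF1 with LIF, but 0.487, 0.523 and 0.548 for IL6 with LIF, IL11 and CLCF1.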

How the data were processed

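Poly-A RNA libraries of 24 samples (TruSeq version 2, a kit that does not mark strand) were sequenced, and reads were aligned to the UMD v3.1 bovine genome with NextGENe (2.3.4) by the authors, who deposited whole-number read counts per annotated interval. A second deposited column, the average coverage of each interval, is a signal per base and was used only to check the counting. The counts summed to between 1.50 and 1.71 per matched read, so they are not single reads, and intervals can overlap. Positions are those of the files.

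Groups were taken from the sample titles, and replicates are 4 animals per breed and hour. Rows at or above 1 CPM in at least 50% of the samples compared were tested with the edgeR (4.0.16, R 4.3.3) likelihood-ratio test on TMM-scaled counts over the whole table with Benjamini-Hochberg adjustment, after the study's methods. A call needed FDR under 0.05, at least 2-fold and an average above 1 CPM. Intervals are 95% and use a quantile of 1.96. Coverage-based levels are covered bases per 1000000 covered bases. The steps were tested on simulated data. All 36 pairs of replicates differed by more than sampling noise.

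The titles tie the 3 hours of each animal together, so the animal number pairs samples within a breed: deviations from group means correlated at a mean r of 0.658, 0.619 and 0.611 (lowest 0.432) for the same animal at different hours, and at about -0.2 for other animals. Across breeds equal numbers mark different animals. The main comparisons were made without the animal block, as in the study's methods. Alternatives were the block, the quasi-likelihood F test, DESeq2 (1.42.0), RLE size factors, breed as a covariate, no filter, the data without 4 libraries, and each animal left out in turn.

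The members, lists, tests and alternatives were chosen with earlier results of these data known. Named genes were all members, every gene of the lists called in a combined LPS comparison or between breeds, STAT3, JAK1 and SOCS3, and the 3 rows most like each ligand, and a gene that the rule also names is not reported here. IL27RA, OSM, ADAM10 and ADAM17 were named after their values were seen. Counting error is the only error that the level of 3 counts covers. Sequences and motifs were not used here.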

Additional observations from a re-analysis of the deposited data

Results flagged for a closer look

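In 54 sets of 4 animals (9 members by 6 groups), 2 values stood farther from the other 3 than Dixon's 95% critical value for 4 samples allows, where chance gives about 1 in 20 sets. IL11 in Angus at hour 2 was 1.82 CPM in animal 1 and between 1.33 and 1.34 CPM in the others. IL6R in Angus at hour 0 was 1.48 CPM in animal 2 and between 2.05 and 2.16 CPM in the others.

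With the animal as a block, 3 differences between the breeds in the change over time passed the FDR limit. The LIF change from hour 0 to hour 8 was larger in Holstein by 1.13 on the log2 scale (edgeR FDR = 0.000175). The IL6 change from hour 2 to hour 8 was larger in Holstein by 2.50 (FDR = 2.34e-16), and that of CLCF1 was -0.54 (FDR = 0.047), which is a larger decline in Holstein and under 2-fold. In the quasi-likelihood F test with that block the FDR was 0.0507, 0.00143 and 0.0956. None passed without the block, where the FDR was 1, 0.795 and 0.818.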

How the results depend on the processing

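The replicate block moved counts of calls over all rows by more than 1.5 times in the interactions alone: from 56 to 126 at hour 2, from 20 to 100 at hour 8 and from 58 to 194 for hour 8 against hour 2. The F test with the block gave 74, 22 and 152. Without the block the quasi-likelihood F test called 16, 0 (756 rows at an unadjusted p under 0.05, and 24 calls by DESeq2) and 26 rows in these interactions, and 90 against 178 for Angus at hour 8. Without the 4 libraries that stood apart, 258 in place of 777 rows differed between the breeds at hour 0, and 6 in place of 20 in the hour 8 interaction. Leaving out 1 animal gave 515 to 1120 rows between the breeds at hour 0, 446 to 1128 at hour 8 (671 in full; the extremes without Angus animals 4 and 3), and 33 to 80, 2 to 62 and 39 to 90 in the interactions. Among members the block added the calls of LIF (hour 8 combined and interaction), LIFR (hour 8, Holstein) and IL6 (interaction, hour 8 against 2), and changed no other call among comparisons of hours and interactions. Under 2-fold, it also brought OSMR, IL11RA and IL6R past the FDR limit at hour 8 with the breeds combined. Between the breeds equal numbers mark different animals (mean r -0.112), so no paired analysis was possible there.

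In 40 fits a member changed sign, none past the FDR limit, and all but 1 at less than 0.5. The exception was IL6 from hour 2 to 8 in Angus, at 1.07 without the library of animal 3 at hour 2 and with its hour 8 library kept. Without the 4 libraries the others were IL11RA (0.05 combined, 0.01 Holstein and -0.12 Angus at hour 2; interactions 0.12 and 0.02), IL6ST (-0.16 Angus at hour 2; -0.20 between the breeds at hour 0), CLCF1 (0.03, breeds, hour 0), OSMR (0.18, breeds, hour 2; -0.14, interaction hour 8 against 2) and LIF (-0.46, the same interaction). IL11RA at hour 2 was at 0.00 with the block, with the block in the F test and with breed as a covariate. Leaving out 1 animal gave these ranges: IL11RA at hour 2 -0.05 to 0.03 combined, -0.10 to 0.01 in Holstein and -0.06 to 0.18 in Angus, -0.20 to 0.02 in Angus at hour 8, and interactions -0.23 to 0.01 (hour 2) and -0.08 to 0.03 (hour 8 against 2). IL6ST gave -0.10 to 0.09 in Angus at hour 2 and -0.09 to 0.10 between the breeds at hour 0. OSMR gave 0.00 to 0.23 in Angus at hour 8, and -0.18 to 0.18 and -0.11 to 0.35 between the breeds at hours 2 and 8. CLCF1 gave -0.16 to 0.05 and -0.26 to 0.06 between the breeds at hours 0 and 8, and -0.19 to 0.04 in the hour 8 interaction. LIFR gave -0.18 to 0.04 between the breeds at hour 8 and -0.05 to 0.54 in the hour 2 interaction. IL6 gave -2.05 to 0.22 in the hour 2 interaction. By Spearman's rho the row most like IL6 was PDE4B (0.93) and that most like LIF was HIPK3 (0.968), with WNT10B next (0.952), and SMAD7 stayed among the 3 rows most like IL11 and CLCF1. Depth limits IL11 and IL6 at hour 0, both under 1 CPM.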
